A study of Mus musculus with 36 samples.

Results

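Mouse embryonic stem cells treated with the compound BPK25 were compared at day 4 with cells treated with IAA, over every gene of a count table of polyadenylated RNA. The comparison rested on 6 of the 36 libraries of the series, 3 labelled BPK25 and 3 labelled IAA, all taken at day 4. Of 55335 genes in the table, 17394 passed a filter on low counts and were tested. The other libraries held DMSO at day 4 and the same 3 treatments at days 0, 2 and 6, with 3 libraries in each of the 12 groups.

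BPK25 is a code name that the labels used here do not explain. IAA is auxin, which sends a degron-tagged protein to the proteasome in cells that carry the tag and a matching ligase adaptor, and DMSO is the usual solvent control. All groups shared a medium with LIF and KnockOut serum replacement, and the protocol describes gelatin-coated plates, typically with irradiated fibroblast feeder cells. The labels used here do not give the tagged protein, the genotype or clone of each group, the dose, or the event from which days were counted. No label says that the 3 libraries of a group came from separate cultures, so p-values reflect the spread between libraries, which may be technical. In bulk RNA, fewer cells of a type and less RNA per cell cannot be told apart.

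Embryonic stem cells held with LIF express a network of pluripotency factors around Pou5f1, Sox2 and Nanog, and on leaving that state they switch on genes of endoderm, mesoderm, neural and extraembryonic lineages. Stress programs run beside these states. ATF4 and CHOP, made when amino acids are scarce or proteins misfold, turn on genes of amino acid supply, tRNA charging and growth arrest. Immediate early genes are transcribed within minutes of a growth factor or mechanical signal, in part through the serum response factor SRF and the YAP coactivator.

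The 6 libraries held 7531276 to 12428659 counts over genes. Replicates of a day 4 group differed beyond sampling noise, at chi-square values per degree of freedom from 1.47 to 2.07, and no pair was identical. By root mean square log2 distance between group means, BPK25 lay 0.652 from IAA at day 4, against 0.608 between BPK25 and DMSO and 0.619 between IAA and DMSO of that day. Among the other 11 groups, IAA at day 2 (0.506) was the nearest to BPK25 at day 4, and those nearest to IAA at day 4 were IAA at day 6 (0.458) and BPK25 at day 6 (0.485). BPK25 at day 4 lay farther from BPK25 at day 2 (0.768) and day 6 (0.689). Nothing used here checks the treatment or day labels independently, so BPK25 and IAA stand for the libraries labelled so. The mitochondrial share of counts was 1.96% ± 0.10 in BPK25 and 2.49% ± 0.025 in IAA, and the share of cytosolic ribosomal protein genes was 6.76% ± 0.077 and 5.34% ± 0.077 (SD, n = 3). Each ± beside a log2 fold change is an approximate standard error, the size over the square root of the test's F. A level in CPM is a count scaled to a common library total.

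BPK25 and IAA libraries differed for most of the genes tested, evenly in both directions. In BPK25, 4729 genes (27.2% of those tested) were higher than in IAA and 4721 (27.1%) were lower, together 54.3%, by edgeR's quasi-likelihood test with Benjamini-Hochberg adjustment. At least 2-fold differences made up 1037 higher genes (5.96%) and 1029 lower genes (5.92%). The median log2 fold change of all genes was 0.0067. The 3 BPK25 libraries all lay above the 3 IAA libraries for 29.7% of genes and all below for 30% (59.7% without overlap), and 4458 of the higher and 4494 of the lower genes were among these. Because most genes of any kind passed the test, the counts of each gene group below are read against 27.2% and 27.1%. The 44 lists of genes were drawn up with earlier results of these data known.

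The 12 highest genes under the naming rule joined stress, signalling and metal transport genes. Cyp1a1, a cytochrome P450 gene that the aryl hydrocarbon receptor turns on, had 66.7, 64.1 and 69.0 CPM in BPK25 and at 0, 0.185 and 0.0790 CPM in IAA. The pooled ratio of rates was 761 (95% exact interval 259.9 to 3691, counting error only), from 2038 counts against 3. DMSO lay between them at 1.03 to 1.54 CPM, so the IAA level was also below the solvent. Nupr1, a small chromatin-associated stress factor, stood at 21.5, 18 and 17.7 CPM in BPK25 against 1.88, 1.94 and 1.97 in IAA, a log2 fold change of 3.31 ± 0.15. Cavin1, which encodes a coat protein of caveolae, stood at 180.2, 212 and 197 CPM against 23.3, 20.9 and 25.1 (3.08 ± 0.06). Slc30a1, the zinc exporter of the plasma membrane, stood at 74.0, 70.9 and 76.5 CPM against 10.8, 12 and 13.1 (2.62 ± 0.08). The naming rule required BPK25 and IAA libraries without overlap in these genes. In Nupr1 it was IAA, not BPK25, that was far from DMSO (19.1, 1.93 and 13.4 CPM in BPK25, IAA and DMSO). The others were the phosphatase gene Dusp8 (3.27 ± 0.19), the EGR corepressor gene Nab2 (2.94 ± 0.11), the sphingosine 1-phosphate exporter gene Mfsd2b (2.75 ± 0.19), Ager (2.68 ± 0.19), the neuronal intermediate filament gene Prph (2.63 ± 0.08), the small GTPase gene Rrad (2.59 ± 0.27), Col20a1 (2.53 ± 0.12) and Ush1c (2.45 ± 0.22). Exons of Nab2 overlap those of Nemp1 and Stat6, and the sources used here do not give the strand setting. Every adjusted p of the genes given a log2 fold change here was at most 1.55e-11.

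The 12 lowest genes included transcription factors of mesoderm and matrix genes. Nepn, which encodes the small leucine-rich proteoglycan nephrocan, stood at 0.166, 0.132 and 0 CPM in BPK25 and at 15.3, 13.1 and 12.1 CPM in IAA. It had 3 counts against 457, a ratio of rates of 136 in favour of IAA (exact interval 46.3 to 662). Osr1, a zinc finger factor of intermediate and lateral mesoderm, had 0, 0 and 0.462 CPM in BPK25 against 4.88, 6.57 and 4.82 in IAA (-4.94 ± 0.42). Foxc2, a forkhead factor of paraxial mesoderm and vessels, had 0.332, 0.526 and 0.277 CPM against 9.10, 10.7 and 8.77 (-4.67 ± 0.27). The naming rule required that BPK25 and IAA libraries did not overlap in these genes. Igf2, the imprinted fetal growth factor gene, stood at 25.1, 25.4 and 26.9 CPM in BPK25 and at 408, 412 and 411 CPM in IAA (-3.99 ± 0.06). DMSO stood at 7.93 to 10.6 CPM, so both treatments lay above the solvent for Igf2. The model Gm49394 overlaps it and held 14192 counts against 14787. The list was completed by the synaptotagmin gene Syt6 (-4.72 ± 0.32), the forkhead gene Foxd2 (-4.59 ± 0.37), the chemokine gene Cxcl5 (-4.51 ± 0.36), the long noncoding RNA Miat (-4.37 ± 0.30), Shisa3 (-4.35 ± 0.17), the fibrillar collagen gene Col3a1 (-4.27 ± 0.24), the glucuronosyltransferase gene Ugt2b34 (-3.89 ± 0.18) and the matrix gene Spon1 (-3.86 ± 0.18). Adjusted p-values were at most 6.97e-14 by the same test.

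**Figure D1:**
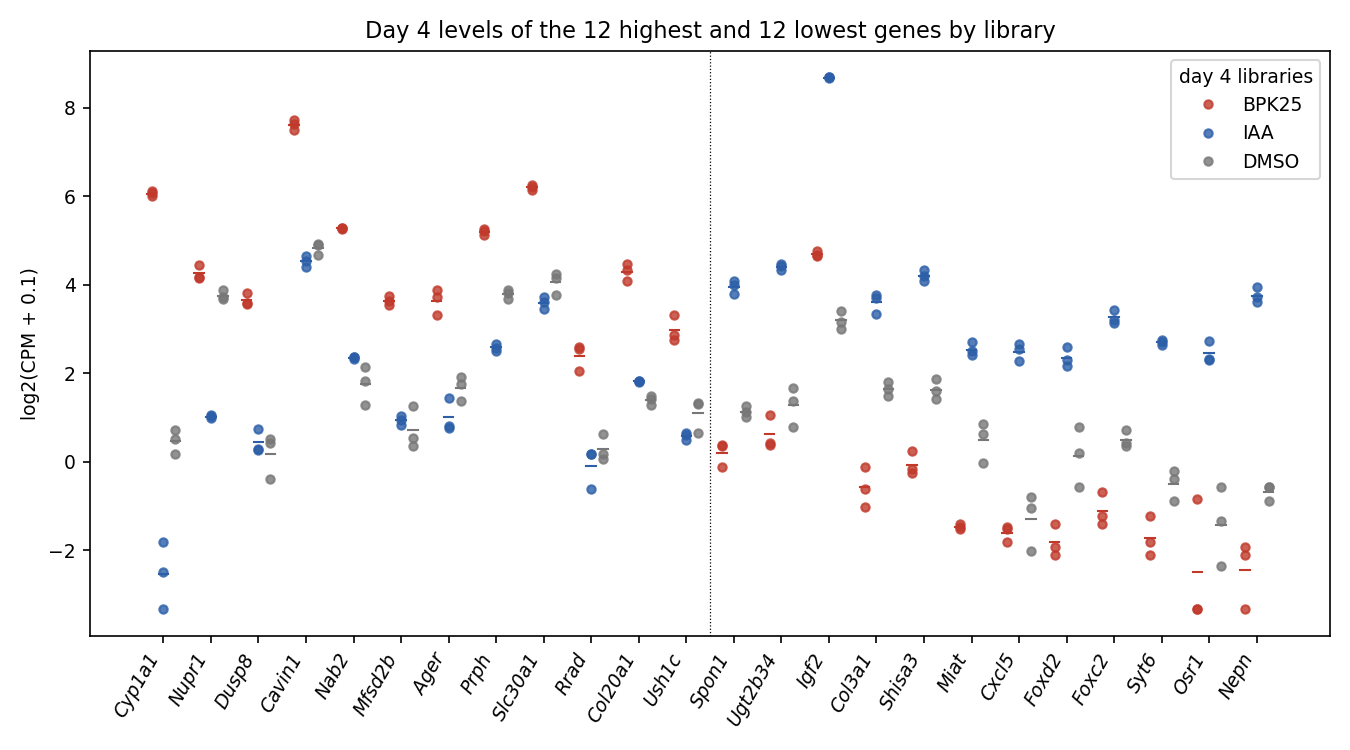
Level of each of the 24 genes in every day 4 library, on the scale log2(CPM + 0.1), with BPK25 in red, IAA in blue and DMSO in grey. Bars are means of 3 libraries. BPK25 lies above IAA in the 12 genes on the left and below it in the 12 on the right, with no overlap, as the naming rule requires. For Cyp1a1 and Nupr1 the DMSO libraries lie between the others, and for Igf2 they lie below both.

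Genes that ATF4 and CHOP drive were mostly higher in BPK25. Among ATF4 and CHOP stress genes, 14 of 19 tested were higher, 3 were lower and 2 did not pass, with a median log2 fold change of 0.78. Atf4 itself stood at 206, 209 and 210.0 CPM in BPK25 and 96.6, 100 and 96.3 in IAA (1.09 ± 0.05), with DMSO between them at 118 to 136 CPM. Ddit3, which encodes CHOP, stood at 115, 116 and 106 CPM against 38.9, 35.2 and 41.9 (1.53 ± 0.06). Neither gene had overlapping libraries. The transcription factor gene Atf3 (2.26 ± 0.12) and Trib3 (2.09 ± 0.13), a pseudokinase that feeds back on ATF4, were also higher. In the other direction lay Hspa5 (-0.39 ± 0.04), the main chaperone of the endoplasmic reticulum, Xbp1 (-0.40 ± 0.06), a factor of the same organelle's unfolded protein response, and Ddit4 (-0.36 ± 0.08), an mTORC1 inhibitor. Exons of another model with the symbol Ddit3 and of Mars overlap those of Ddit3, with 1058 and 9842 counts against 4742.

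The enzymes of amino acid supply moved with them. Of 26 tested amino acid and one-carbon synthesis genes, 23 were higher, 3 lower and 0 did not pass, with 11 of the higher ones at least 2-fold and a median of 0.77. Asns, which makes asparagine, stood at 110.2, 107 and 114 CPM in BPK25 against 54.6, 53 and 52.8 in IAA (1.05 ± 0.05), and DMSO lay between at 80.7 to 83.1 CPM. The mitochondrial folate enzyme gene Aldh1l2 (1.96 ± 0.11), the cystathionine synthase gene Cbs (1.63 ± 0.22) and the glutamine transporter gene Slc1a5 (1.39 ± 0.09) were highest. Aldh1l2 shares exon sequence with D10Wsu102e on the other strand, which held 3265 counts against 837, so its value is uncertain. Without IAA replicate 1, 1 member instead of 3 was lower. Against DMSO, the list's median was 0.22 in BPK25 and -0.47 in IAA, with 13 members above and 7 below DMSO in BPK25, and 2 above and 19 below in IAA. These 2 comparisons share the DMSO libraries, and 53% and 51.9% of all genes passed in them. By direction, 26.2% of all genes were above DMSO and 26.8% below in BPK25, and 25.9% each way in IAA.

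Aminoacyl-tRNA synthetases, which load amino acids onto tRNAs, gave 10 higher and 4 lower genes of 20 tested, with 6 that did not pass and a median of 0.16. Cars (1.08 ± 0.05), Aars (0.95 ± 0.03) and Gars (0.76 ± 0.04), for cysteine, alanine and glycine, were highest. Aars stood at 923, 929 and 933 CPM in BPK25 against 493, 479 and 469.7 in IAA. Vars (-0.24 ± 0.04) and Wars (-0.24 ± 0.04), for valine and tryptophan, were lower. Over the genes with a log2 fold change in these 3 groups, adjusted p was at most 8.1e-05 (quasi-likelihood test of edgeR with Benjamini-Hochberg adjustment).

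Promoter sequence was set beside these groups, because their members moved together. The window was the 250 bases before the start site in RefSeq's mouse promoters, build GRCm38.p6, searched on both strands for TGATGNAA, the composite site that ATF4 shares with C/EBP factors. The motif was in 3.45% of 32851 windows. Counted by gene, it was found for 5 of 18 genes with a window in the ATF4 and CHOP list. For the amino acid list this was 4 of 21. All of these genes were called higher, but so were 13 of the 18 and 19 of the 21 with or without it. A gene with several start sites counted if any of its windows held the motif, whereas the 3.45% is per window. A match of letters is a description and shows no binding. The windows of Nupr1 (chr7:126625471-126625720), Asns (chr6:7693210-7693459) and Atf3 (chr1:191183334-191183583) are all on the minus strand and are printed 5′ to 3′, with the motif or its reverse complement in capitals. They are shown as examples of higher genes described above whose window holds the motif. Counted from its first printed base, the motif lies 110, 23 and 110 bases before the start.
Nupr1: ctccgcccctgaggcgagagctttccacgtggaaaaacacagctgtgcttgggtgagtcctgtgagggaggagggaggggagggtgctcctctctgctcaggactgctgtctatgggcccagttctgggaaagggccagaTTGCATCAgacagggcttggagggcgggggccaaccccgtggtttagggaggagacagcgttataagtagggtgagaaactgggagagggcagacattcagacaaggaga
Asns: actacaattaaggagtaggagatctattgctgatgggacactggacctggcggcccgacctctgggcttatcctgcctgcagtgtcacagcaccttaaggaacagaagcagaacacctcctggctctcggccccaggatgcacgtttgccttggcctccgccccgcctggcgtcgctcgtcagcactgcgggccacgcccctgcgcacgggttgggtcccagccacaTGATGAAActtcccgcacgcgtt
Atf3: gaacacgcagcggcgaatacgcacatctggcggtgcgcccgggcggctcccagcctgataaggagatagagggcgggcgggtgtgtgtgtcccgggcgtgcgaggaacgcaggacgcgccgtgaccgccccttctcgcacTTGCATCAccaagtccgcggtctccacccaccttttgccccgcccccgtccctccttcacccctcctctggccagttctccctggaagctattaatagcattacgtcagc

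Immediate early genes were higher in BPK25 as a group, and the SRF and YAP lists were split. Of 19 tested immediate early genes, 15 were higher (13 of them at least 2-fold), 0 lower and 4 did not pass, with a median of 1.56. Egr1 stood at 42.4, 43.4 and 45.9 CPM in BPK25 against 12.6, 12.3 and 15.2 in IAA (1.71 ± 0.09). Fos, a partner in the AP-1 dimer, stood at 9.28, 8.29 and 10.5 CPM against 3.0, 2.41 and 3.16 (1.71 ± 0.19). The groups did not overlap, and DMSO was lowest, at 7.05 to 7.98 CPM for Egr1 and 1.33 to 1.76 for Fos. Myc (0.46 ± 0.23, adjusted p = 0.0791 by edgeR's quasi-likelihood test) did not pass. Without IAA replicate 3, 1 immediate early gene was lower.

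Among SRF and smooth muscle contractile genes, 10 of 26 tested were higher, 9 lower and 7 did not pass (median -0.06). Srf itself stood at 116, 116 and 125 CPM in BPK25 against 47.3, 50.3 and 47.6 in IAA (1.30 ± 0.06). The actin-binding gene Tagln (1.11 ± 0.06) and the smooth muscle myosin gene Myh11 (1.00 ± 0.14) were higher, while the smooth muscle actin gene Acta2 stood at 2.40, 1.58 and 2.22 CPM in BPK25 and at 17.8, 18.3 and 18.6 in IAA (-3.09 ± 0.16). The myosin light chain gene Myl9 (-0.85 ± 0.09) and the tropomyosin gene Tpm1 (-0.40 ± 0.05) were lower too. Against DMSO, 23 members were above it in BPK25 and 23 in IAA, beside 26.2% and 25.9% of all genes. The list was above the solvent under both treatments, and between the treatments the members parted. Tagln overlaps exons of Pcsk7 and Gm48529 on the other strand.

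The YAP target and Hippo list gave 11 higher, 11 lower and 5 not passing of 27 tested (median -0.01). Ccn1, a secreted matricellular protein induced by YAP and SRF, stood at 304, 292 and 292 CPM in BPK25, 63.6, 55.0 and 60.5 in IAA and 12 to 14.5 in DMSO (2.31 ± 0.05 between the treatments). Its relative Ccn2 (1.51 ± 0.07) and the nuclear ankyrin gene Ankrd1 (1.28 ± 0.19) were higher too, and the ligand gene Tgfb2 (-1.42 ± 0.20) was lower. The coactivator gene Wwtr1 (TAZ) was higher (0.73 ± 0.04), and Yap1 had 134 and 133 CPM (0.01 ± 0.05, adjusted p = 0.835 by edgeR's quasi-likelihood test). Called genes valued in these 3 lists had adjusted p-values of at most 1.31e-07.

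The window of Srf (chr17:46556163-46556412, minus strand, GRCm38.p6) is shown because Srf is the factor that names its list. The capitals mark 2 CArG boxes, whose first bases lie 82 and 62 bases before the start. The box was in 1.47% of all windows. By gene, it was found for 7 of 23 in the SRF list, and for 3 of its 8 higher genes. In the immediate early list it was found for 1 of 13, a gene not among the higher ones. A window with no match says only that these letters are not in it.
Srf: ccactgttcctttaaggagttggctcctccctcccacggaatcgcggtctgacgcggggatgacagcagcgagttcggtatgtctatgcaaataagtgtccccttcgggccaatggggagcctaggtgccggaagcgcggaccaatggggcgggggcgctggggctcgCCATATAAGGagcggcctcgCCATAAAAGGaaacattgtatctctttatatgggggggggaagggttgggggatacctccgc

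FGF and ERK genes were higher more often than lower, with ligands and receptors in both directions. The FGF and ERK list gave 11 higher, 6 lower and 3 not passing of 20 tested (median 0.17). The higher ones included the ERK phosphatase genes Dusp5 (1.96 ± 0.09), at 68.3, 65.6 and 75.6 CPM against 16.9, 18.1 and 18.8, and Dusp6 (1.10 ± 0.07), with the pathway inhibitor gene Spry4 (1.31 ± 0.17). Lower ones were the ligand gene Fgf10 (-1.62 ± 0.10) and the receptor genes Fgfr3 (-1.24 ± 0.14) and Fgfr2 (-1.04 ± 0.06). The ligand gene Fgf4 (0.76 ± 0.23, adjusted p = 0.00483 by edgeR's quasi-likelihood test) and the receptor gene Fgfr1 (0.16 ± 0.05, adjusted p = 0.014) were called higher. Fgf4 lost its call without BPK25 replicate 2 (0.51). Fgfr1 lost it without BPK25 replicate 1 or 3 or IAA replicate 1 or 3 (0.13 to 0.14), or with no filter (0.12). In the Wnt list, 13 of 27 tested were higher, 7 lower and 7 did not pass (median 0.26). The target and feedback gene Axin2 (1.16 ± 0.10) and the factor gene Tcf7 (0.57 ± 0.06) were higher, whereas the noncanonical ligand gene Wnt5a (-2.98 ± 0.15), at 1.85 to 1.99 CPM in BPK25 and 14.0 to 16.2 in IAA, and Tcf7l2 (-1.33 ± 0.07) were lower. Ctnnb1, which encodes beta-catenin, had 591 and 576 CPM (0.04 ± 0.04, adjusted p = 0.393, edgeR).

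BMP readouts pointed the other way. Of 21 BMP and Id genes tested, 0 were higher, 10 lower and 11 did not pass (median -0.25). Id1 and Id3, direct BMP targets that block bHLH factors, fell by 1.57 ± 0.09 and 2.28 ± 0.16 on the log2 scale. Id3 stood at 3.40, 2.76 and 2.96 CPM against 14.6, 14.6 and 15.6, with DMSO between at 4.85 to 6.06. The ligand gene Bmp2 (-1.37 ± 0.16) and Id2 (-0.76 ± 0.06) were lower, and Bmp4 had 3.11 and 2.79 CPM (0.13 ± 0.18, adjusted p = 0.616, edgeR). For Nodal and TGF-beta genes, 5 of 21 tested were higher, 7 lower and 9 did not pass. Nodal (1.07 ± 0.18), the Smad repressor gene Skil (1.04 ± 0.06) and the cofactor gene Foxh1 (0.94 ± 0.18) were higher, and the coreceptor gene Tdgf1 (-1.30 ± 0.11) and Smad3 (-0.87 ± 0.09) lower. In the retinoic acid list 7 of 20 were higher, 8 lower and 5 did not pass. The retinaldehyde dehydrogenase genes Aldh1a1 (-2.06 ± 0.12) and Aldh1a2 (-1.73 ± 0.13) and the retinol uptake gene Stra6 (-1.81 ± 0.07) were lower, and the receptor gene Rarg (0.96 ± 0.08) and Hoxb1 (1.02 ± 0.11) higher. Other than Fgf4 and Fgfr1, the called genes of the FGF, Wnt, BMP, Nodal and retinoic acid lists valued here had adjusted p-values of at most 1.21e-05.

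p53 targets and oxidative stress genes leaned towards BPK25. Among p53 target genes, 18 of 24 tested were higher, 0 lower and 6 did not pass, with a median of 0.46. The p53 ubiquitin ligase gene Mdm2 stood at 325, 371 and 310.2 CPM against 160.4, 164 and 162 (1.05 ± 0.05), and DMSO stood at 170.2 to 181. The cell cycle inhibitor gene Cdkn1a (1.02 ± 0.08), the kinase gene Plk2 (1.05 ± 0.06) and Pmaip1 (1.05 ± 0.07), which encodes the death factor NOXA, were also higher. Trp53 itself had 35.8 and 38.5 CPM (-0.10 ± 0.07, adjusted p = 0.23, edgeR). NRF2 target and glutathione genes gave 19 higher, 3 lower and 7 not passing of 29 tested (median 0.39). Sulfiredoxin, encoded by Srxn1 (1.19 ± 0.06), and heme oxygenase, encoded by Hmox1 (1.08 ± 0.07), were among the higher ones, while Nfe2l2, which encodes NRF2, was lower (-0.27 ± 0.04). In the aryl hydrocarbon receptor list, 7 of 12 were higher, 4 lower and 1 did not pass. Beside Cyp1a1 it held the feedback gene Tiparp, at 124, 133 and 129.6 CPM against 48.9, 46.4 and 45.4 (1.46 ± 0.05). Another classical target, Cyp1b1, was lower at 24.7 CPM against 32.5 (-0.40 ± 0.08). Ugt1a6a (-2.50) and Ugt1a6b (-2.49) of the same list were also called lower, and further than Cyp1b1. The receptor gene Ahr stood at 9.25 and 7.50 CPM (0.30 ± 0.12) and lost its call without BPK25 replicate 1 (0.25), BPK25 replicate 2 (0.27), IAA replicate 1 (0.31) or IAA replicate 3 (0.25), and also with no filter (0.27) or by DESeq2 (0.30). The largest adjusted p of the called genes given a ± here, other than Ahr, was 3.48e-05.

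The window of Cyp1a1 (chr9:57697363-57697612, plus strand, GRCm38.p6) is shown because this gene had the largest log2 fold change of the naming rule. The capitals mark GCGTG, the core that the aryl hydrocarbon receptor dimer reads, 54 bases before the start. That core is short and was in 28.2% of all windows, and in 5 of 8 windows of the receptor list.
Cyp1a1: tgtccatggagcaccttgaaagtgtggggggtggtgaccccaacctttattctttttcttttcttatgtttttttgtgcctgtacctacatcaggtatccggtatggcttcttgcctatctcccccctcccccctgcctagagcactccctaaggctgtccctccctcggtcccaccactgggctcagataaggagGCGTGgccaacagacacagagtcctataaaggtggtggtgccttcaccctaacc

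**Figure D2:**
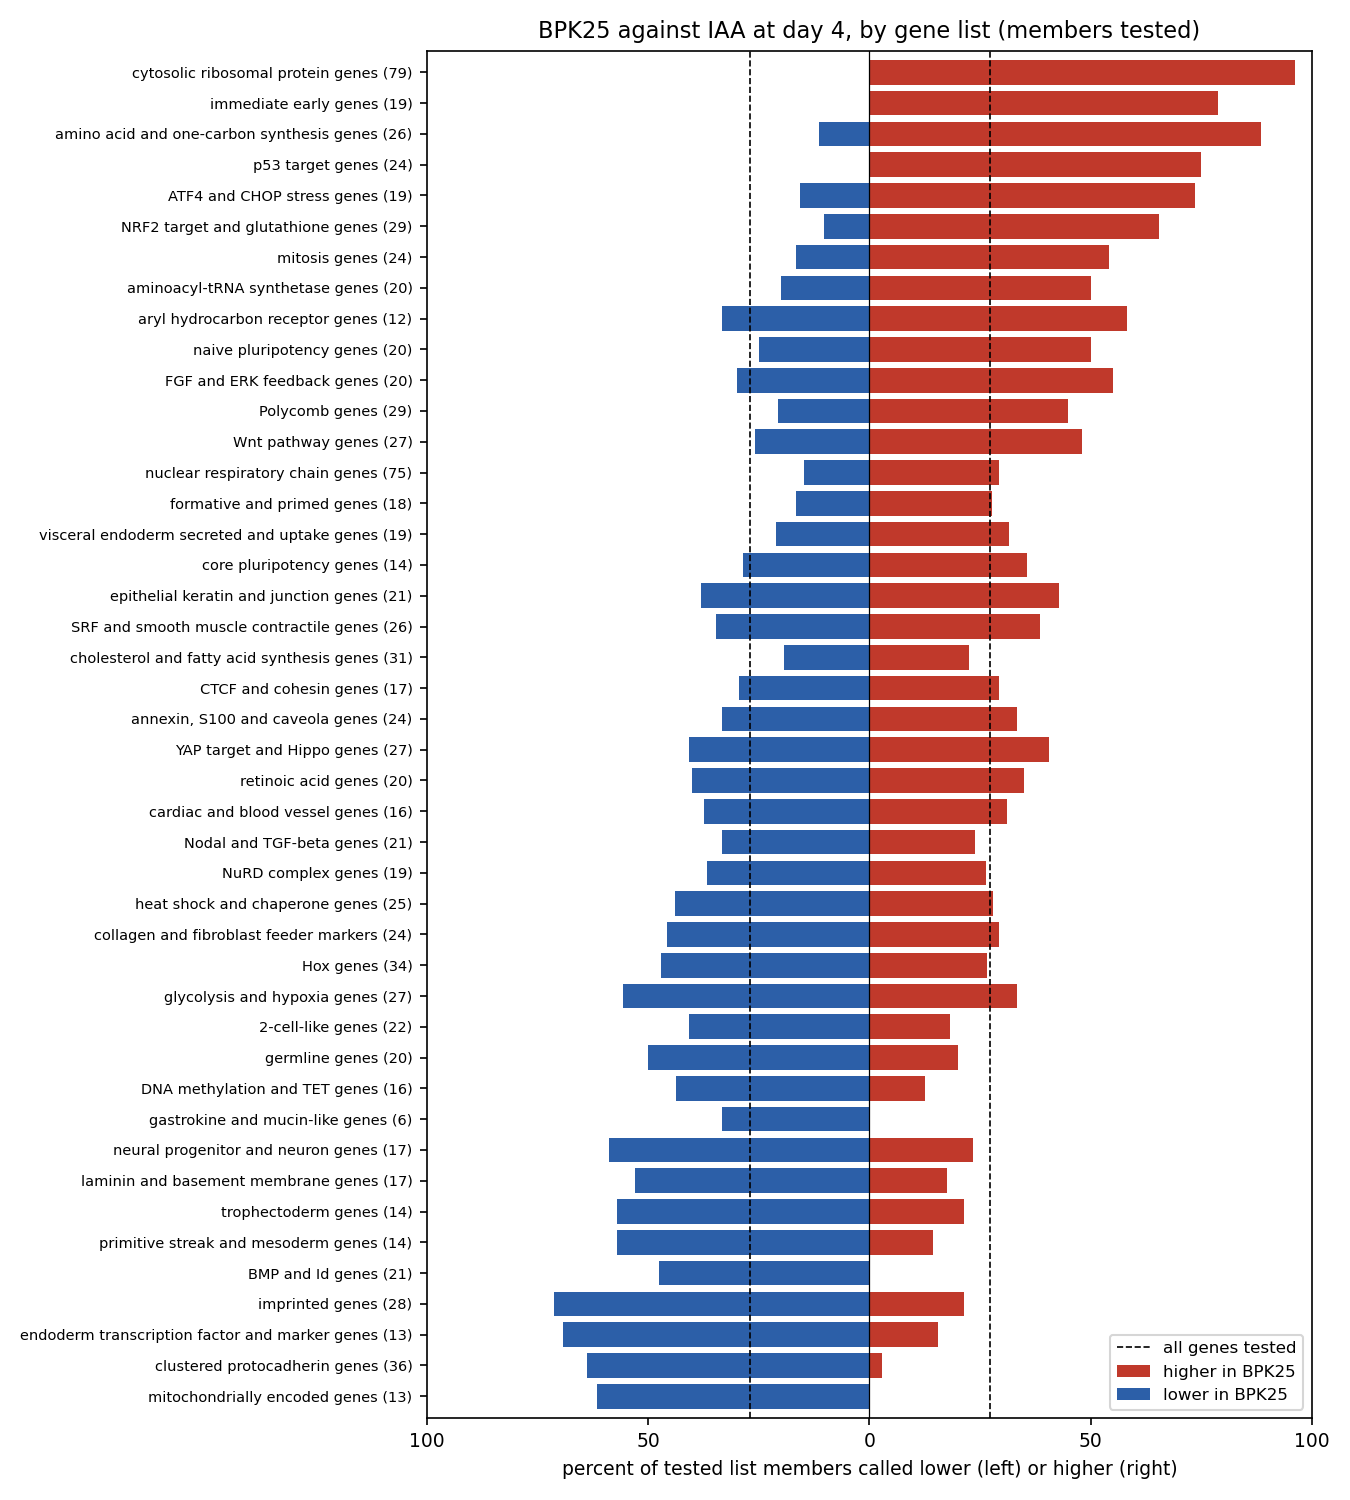
For each of 44 gene lists, the percent of tested members called higher in BPK25 than in IAA at day 4 (red, right) or lower (blue, left), with the number tested in parentheses. Dashed lines mark the same shares over all genes, 27.2% and 27.1%. Ribosomal protein genes lie at the top with 96.2% higher, and mitochondrially encoded genes at the bottom with 61.5% lower.

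Naive pluripotency genes were higher in BPK25 more often than lower, and the core list lay nearer to the background. Of 20 naive pluripotency genes, 10 were higher, 5 lower and 5 did not pass (median 0.20). Klf2 (1.53 ± 0.12), the nuclear receptor genes Nr0b1 (1.20 ± 0.17) and Esrrb (0.68 ± 0.06) were higher, and the LIF feedback gene Socs3 (-2.30 ± 0.17) and Dppa3 (-1.89 ± 0.16) lower. In the core list of 14, 5 were higher, 4 lower and 5 did not pass (median 0.04). Pou5f1 stood at 383, 368 and 376 CPM in BPK25, 269, 268 and 269 in IAA (0.49 ± 0.04) and 339 to 374 in DMSO. Nanog stood at 23.5, 20.3 and 24.5 CPM against 16.9, 13.9 and 15.0 (0.59 ± 0.09), both below the 37.0 to 41.7 CPM of DMSO. Sox2 had 95.4 and 89.6 CPM (0.09 ± 0.06, adjusted p = 0.167, edgeR). The RNA-binding factor gene Lin28a (-0.81 ± 0.05) was lower. Formative and primed genes gave 5 higher, 3 lower and 10 not passing of 18, a share near the background. In them, Cdh1 was higher (0.28 ± 0.04) and Cdh2, the cadherin that replaces it as cells leave the epithelial state, was lower, at 10, 14.6 and 12.1 CPM against 45.4, 41.4 and 43.9 (-1.86 ± 0.10).

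Endoderm factors and basement membrane genes were mostly lower in BPK25, and the shares of visceral endoderm genes called lay near the background. Of 13 endoderm transcription factor and marker genes tested, 2 were higher, 9 lower and 2 did not pass (median -0.76). Gata4 stood at 10.4, 10.1 and 10.6 CPM in BPK25 against 28.1, 30.5 and 28.4 in IAA (-1.47 ± 0.10), and DMSO, at 28.9 to 30.7, was near IAA. Gata6 (-0.90 ± 0.05), Sox17 (-0.81 ± 0.09) and the receptor gene Pdgfra (-1.24 ± 0.04) were lower, and Hnf4a (0.81 ± 0.15) and Eomes (0.40 ± 0.10) higher. Among laminin and basement membrane genes, 3 of 17 were higher, 9 lower and 5 did not pass (median -0.26). Lama1 stood at 414, 416 and 417 CPM against 1873, 1888 and 1872 (-2.18 ± 0.03), with DMSO between at 1305 to 1322. The collagen IV genes Col4a1 (-1.98 ± 0.04) and Col4a2 (-1.84 ± 0.04) were lower and fibronectin, Fn1, was higher (0.88 ± 0.04). Of 19 visceral endoderm secreted and uptake genes, 6 were higher, 4 lower and 9 did not pass (median 0.01). At least 2-fold, 4 were higher and 4 lower, against 5.96% and 5.92% of all genes. Apoe stood at 1268, 1349.9 and 1293 CPM against 337, 323 and 318 (2.00 ± 0.04), and the lipoprotein gene Apob (1.81 ± 0.06) and the transferrin gene Trf (1.76 ± 0.09) were higher. The uptake adaptor gene Dab2 (-1.22 ± 0.04) and the fibrinogen gene Fgb (-1.24 ± 0.12) were lower.

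Mesoderm, trophectoderm and neural genes were mostly lower in BPK25. Of 14 primitive streak and mesoderm genes tested, 2 were higher, 8 lower and 4 did not pass (median -0.44). Meox1, a somite factor, stood at 9.45, 7.50 and 7.31 CPM against 87.2, 83.0 and 81.4 (-3.35 ± 0.09), and DMSO, at 9.40 to 11.6, was near BPK25. Foxf1 (-2.64 ± 0.20) and the VEGF receptor gene Kdr (-2.37 ± 0.12) were lower. Without BPK25 replicate 3 or IAA replicate 2, 1 of this list was higher in place of 2. The trophectoderm list gave 3 higher, 8 lower and 3 not passing of 14 (median -0.53), with Plac1 (-2.48 ± 0.23), Gata3 (-2.42 ± 0.14) and Rhox6 (-1.31 ± 0.10) lowest. Among epithelial keratin and junction genes 9 of 21 were higher, 8 lower and 4 did not pass. The simple keratin genes Krt19 (-1.75 ± 0.09), Krt7 (-1.41 ± 0.20) and Krt8 (-0.90 ± 0.05) were lower and the claudin gene Cldn4 (1.39 ± 0.10) higher. In the neural list, 4 of 17 were higher, 10 lower and 3 did not pass (median -0.98). Pax6 (-1.50 ± 0.09) and Sox11 (-1.58 ± 0.06) were lower, and Stmn2 (1.45 ± 0.10) higher. Cardiac and blood vessel genes gave 5 higher, 6 lower and 5 not passing of 16, and the higher count was 3 without BPK25 replicate 1, BPK25 replicate 3 or IAA replicate 2. Pecam1 (1.22 ± 0.04), an endothelial adhesion gene that stem cells also express, was higher and the endothelial cadherin gene Cdh5 (-2.39 ± 0.16) lower. Over the called genes of the pluripotency and lineage lists valued here, adjusted p was at most 0.000649 (quasi-likelihood test of edgeR with Benjamini-Hochberg adjustment).

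Levels of whole marker lists moved with these groups. The summed level of 6 pluripotency markers was 986 to 1014 CPM in BPK25, 751 to 756 in IAA and 1107 to 1209.6 in DMSO. The 8 endoderm markers summed to 817 to 831 CPM in BPK25, 2721 to 2730.2 in IAA and 1797 to 1817 in DMSO, most of it from Lama1 and Dab2. Of these markers 6 were called lower in BPK25 and 1, Afp, was called higher (0.95), while Ttr did not pass. For 5 mesoderm markers the sums were 6.75 to 8.42, 36.2 to 38.2 and 7.89 to 8.96 CPM in the same order, for 5 neural markers 73.3 to 78.0, 121 to 124 and 87.7 to 91.4, and for 6 trophectoderm markers 173 to 183, 311 to 323 and 63.8 to 66.1. Most of the mesoderm sum came from Kdr and Foxf1, while T did not pass and Mixl1 and Mesp1 were not tested. Nes made up most of the neural sum in BPK25 and IAA, and Sox1 did not pass. Most of the trophectoderm sum came from Krt8 and Krt18, keratins of simple epithelia in general, while Cdx2 and Tfap2a did not pass and Elf5 was not tested. The 4 smooth muscle markers alone ran highest in BPK25, at 129 to 139 CPM against 78.6 to 86.8 and 13.7 to 16.0, and most of this sum came from Tagln, while Acta2 was lower. For fibroblast feeder cells, which the protocol names, 10 markers summed to 19.7 to 20.5 CPM in BPK25, 48.9 to 52.1 in IAA and 26.1 to 27.6 in DMSO. In BPK25 the fibroblast genes Lum and Dcn were at 0 in every library, and in IAA they were at 0.0938 to 0.375 CPM, near the floor. Dcn was highest in DMSO, at 0.481 to 0.858 CPM. Of the 9 feeder markers tested, 1 was higher in BPK25, Thy1 (2.00), and 7 were lower, among them Col1a2 (-1.66 ± 0.12) and Col3a1. The broader list of collagen and feeder genes had 7 higher, 11 lower and 6 not passing of 24, with the collagen VI genes Col6a1 (1.72 ± 0.17) and Col6a2 (1.32 ± 0.11) higher. The 4 collagen genes valued here had adjusted p-values of at most 8.14e-12 (edgeR). What part feeder RNA has in the collagen, mesoderm and smooth muscle values was not tested.

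**Figure D3:**
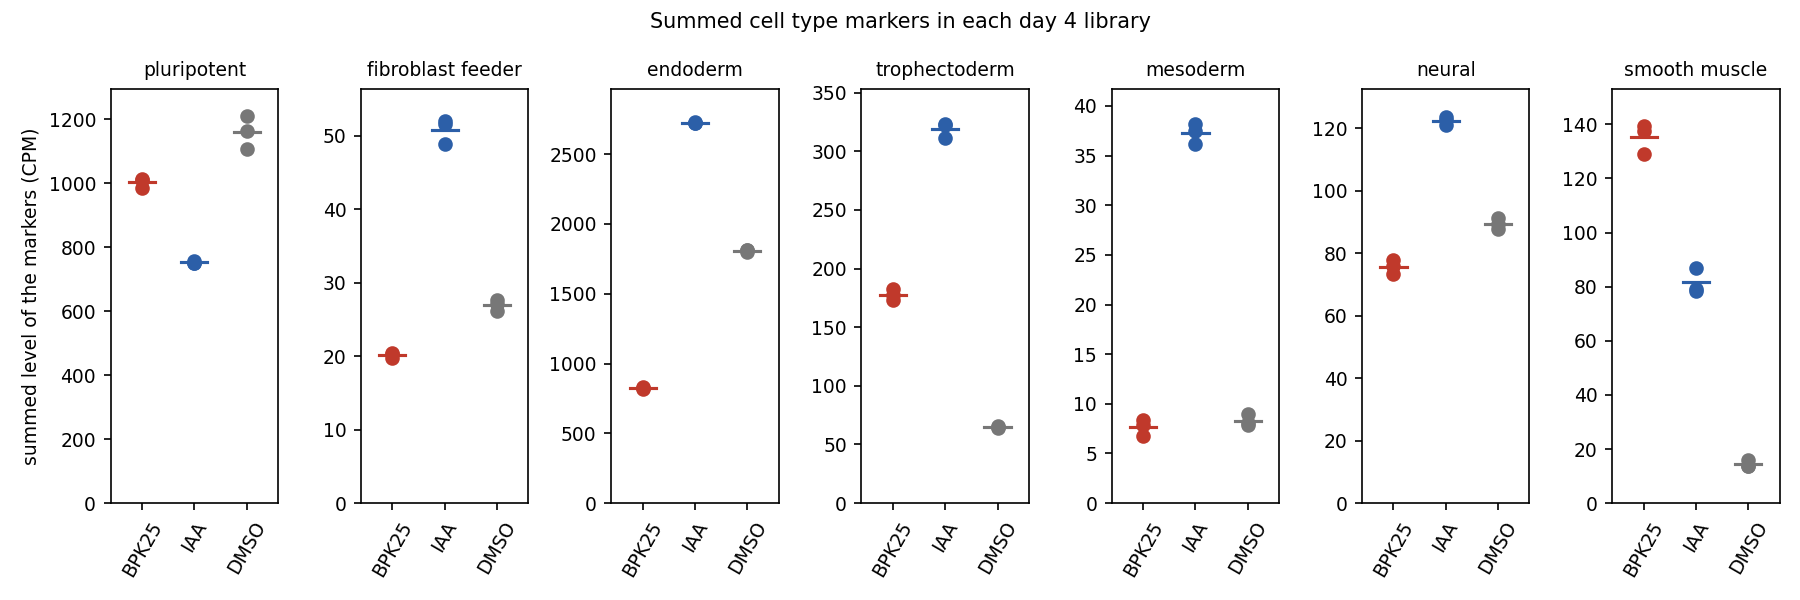
Summed CPM of the markers of 7 cell types in each day 4 library (points, with the mean of 3 libraries as a bar), each panel with its own axis from 0. BPK25 lies below IAA for endoderm, trophectoderm, mesoderm, neural and feeder markers and above it for pluripotency and smooth muscle markers. Groups do not overlap between BPK25 and IAA in any panel.

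Imprinted genes were mostly lower in BPK25, and Hox genes were lower more often than higher. Of 28 imprinted genes tested, 6 were higher, 20 lower and 2 did not pass (median -0.89). Plagl1, a zinc finger factor of the growth-related imprinted network, stood at 41.2, 34.3 and 34.6 CPM in BPK25 against 335, 297 and 317 in IAA (-3.10 ± 0.07), and DMSO, at 32.4 to 35.1, was near BPK25. Dlk1 (-2.0 ± 0.07), Meg3 (-0.93 ± 0.04) and H19 (-1.40 ± 0.07) were lower. H19, the noncoding RNA made beside Igf2 from the other parental copy, stood at 44.3, 48.9 and 51.3 CPM in BPK25, 132, 124 and 125 in IAA and 169 to 186 in DMSO, so its order over the 3 groups differed from that of Igf2. Grb10 (1.68 ± 0.09), the receptor Igf2r that clears IGF2 (0.57 ± 0.04), and Snrpn (0.33 ± 0.05), whose exons overlap Snurf, were higher. Against DMSO the imprinted list's median was 0.15 in BPK25 and 0.73 in IAA. Of 34 Hox genes, 9 were higher, 16 lower (13 of them at least 2-fold) and 9 did not pass (median -0.44). The higher ones named by the rule were Hoxa2 (1.20 ± 0.12), Hoxa4 (1.13 ± 0.14) and Hoxb1, and the lower ones were Hoxd4 (-2.78 ± 0.24), Hoxc6 (-2.56 ± 0.20) and Hoxc8 (-2.55 ± 0.11), at 5.80, 6.45 and 4.62 CPM against 31.3, 32.0 and 33.9. Hoxd4 shares exons with Hoxd3 and Gm28230. Clustered protocadherins gave 1 higher, 23 lower and 12 not passing of 36 (median -0.61). Every lower member but Pcdhb22 was of the gamma cluster, whose genes share exons, so these calls are close to 1 measurement. Among them were Pcdhgc3 (-0.73 ± 0.06), Pcdhgb6 (-0.66 ± 0.07) and Pcdhga2 (-0.65 ± 0.07). The members that did not pass were all of the alpha cluster, with nearly equal log2 fold changes of 0.71 to 0.86. The counts of this list are thus not read against the background. The higher count of this list was 9 without BPK25 replicate 3, and 0 without BPK25 replicate 1 or 2 or IAA replicate 2 or 3. Called genes valued here had adjusted p-values of at most 2.63e-07.

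Cytosolic ribosomal protein genes were higher in BPK25 almost throughout. Of 79 tested, 76 were higher, 0 lower and 3 did not pass, with a median of 0.36 and 0 at least 2-fold. Rpl37 stood at 292, 363 and 333 CPM against 195, 199.9 and 197 (0.74 ± 0.05), and Rps27 (0.70 ± 0.06) and Rpl23a (0.62 ± 0.06) followed. Against DMSO, 7 of these genes were above it and 47 below in BPK25, and 0 above and 74 below in IAA, with medians of -0.13 and -0.50. Of all genes, 26.2% were above DMSO and 26.8% below in BPK25, and 25.9% in each direction in IAA. For the ribosomal protein genes both treatments thus lay below the solvent, IAA further than BPK25. Mitochondrially encoded genes gave 0 higher, 8 lower and 5 not passing of 13 (median -0.25). The complex I subunit gene mt-Nd4 stood at 938, 725 and 671 CPM against 1554, 1359.6 and 1307 (-0.85 ± 0.13), and mt-Cytb of complex III was also lower (-0.55 ± 0.05). Without the filter on low counts 1 of them was higher, and 2 in fits of only the 6 or 9 libraries of day 4. Nuclear genes of the respiratory chain gave 22 higher, 11 lower and 42 not passing of 75 (median 0.02), near the background for higher genes. The complex I gene Ndufs8 was higher (0.77 ± 0.08) and the complex II gene Sdhd lower (-0.54 ± 0.06).

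Glycolysis and hypoxia genes were lower more often than higher, with 9 higher, 15 lower and 3 not passing of 27 (median -0.15). The hypoxia factor gene Epas1 (-1.37 ± 0.05), Pfkl (-0.81 ± 0.05) and Ndrg1 (-0.79 ± 0.08) were lower, and the other phosphofructokinase gene Pfkp (1.10 ± 0.05) and Aldoc (0.72 ± 0.10) higher. Pfkp shares exon sequence with Pitrm1, which held 7604 counts against 6033. Mitosis genes gave 13 higher, 4 lower and 7 not passing of 24 (median 0.12), with the cyclin gene Ccnb1 (0.61 ± 0.04) highest. Heat shock and chaperone genes gave 7 higher, 11 lower and 7 not passing of 25, from Hspb1 (0.91 ± 0.08) to Cryab (-1.82 ± 0.18), and cholesterol and fatty acid synthesis genes gave 7 higher, 6 lower and 18 not passing of 31. Among annexin, S100 and caveola genes 8 of 24 were higher, 8 lower and 8 did not pass, and the giant scaffold gene Ahnak was higher (0.88 ± 0.04). Called genes valued in the last 2 groups of lists had adjusted p-values of at most 4.74e-07 (quasi-likelihood test of edgeR with Benjamini-Hochberg adjustment).

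**Figure D4:**
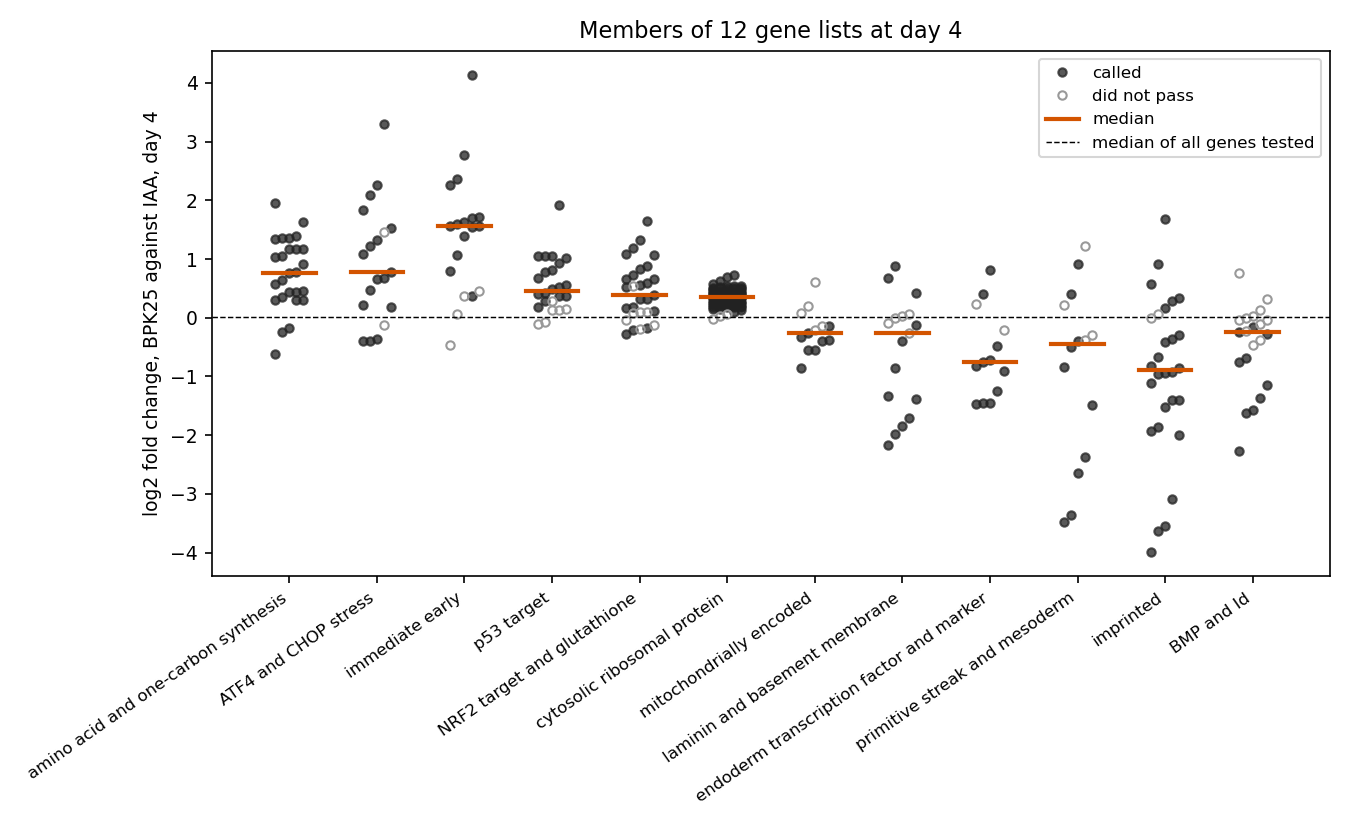
Log2 fold change of BPK25 against IAA at day 4 for each tested member of 12 lists. Filled points passed the test, open points did not, orange bars are list medians and the dashed line is the median of all genes, 0.0067. The median is highest for immediate early genes (1.56) and lowest for imprinted genes (-0.89), and ribosomal protein genes sit in a narrow band around 0.36.

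Genes of the NuRD list, named for the chromatin remodelling and deacetylase complex of the series title, were called in both directions. Of 19 tested, 5 were higher, 7 lower and 7 did not pass (26.3% and 36.8%, against 27.2% and 27.1% of all genes). At least 2-fold, 1 was higher and 0 were lower, against 5.96% and 5.92% of all genes. The gene at least 2-fold higher was Chd5, a remodeller used mainly in neurons and testis. It stood at 37.4, 40.9 and 38.5 CPM in BPK25 against 12.1, 11.9 and 11.4 in IAA (1.72 ± 0.09). The main remodeller gene Chd4 stood at 1278, 1278 and 1195 CPM against 1499, 1448 and 1532 (-0.26 ± 0.04), without overlap. Zmynd8 (-0.60 ± 0.04), Sall4 (-0.45 ± 0.05), Sall1 (-0.41 ± 0.05), the histone-binding subunit gene Rbbp7 (-0.32 ± 0.04) and Mta1 (-0.27 ± 0.04) were lower, and Gatad2b (0.27 ± 0.05) higher. Cdk2ap1 (-0.16 ± 0.07) was lower, and Chd3 (0.17 ± 0.05), Mta3 (0.12 ± 0.04) and the deacetylase gene Hdac1 (0.13 ± 0.05) were higher, but each of these 4 calls was lost under some alternatives. Cdk2ap1 lost its call without BPK25 replicate 3, IAA replicate 1 or IAA replicate 3 (-0.15 to -0.09), Chd3 without BPK25 replicate 2 (0.12), Mta3 without BPK25 replicate 1 or IAA replicate 1 (0.10 in both), and Hdac1 without BPK25 replicate 1 or 3 or IAA replicate 1 or 3 (0.11 to 0.13). With no filter Mta3 (0.08) and Hdac1 (0.10) were not called, and Cdk2ap1 (-0.16) was not by DESeq2, in the fit of 9 libraries or with the replicate block. The higher count was 3 without BPK25 replicate 1 or IAA replicate 1 or with no filter. Hdac2, Mta2, Mbd2, Mbd3, Rbbp4, Gatad2a and Pwwp2a did not pass, with log2 fold changes from -0.09 to 0.09.

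CTCF, the factor that stops loop extrusion by cohesin, was higher in BPK25. Ctcf stood at 423, 408 and 413 CPM against 292, 303 and 313 (0.45 ± 0.04), with DMSO at 301 to 315, near IAA. Its list gave 5 higher, 5 lower and 7 not passing of 17, with the cohesin acetyltransferase gene Esco2 (0.92 ± 0.06) and the release factor gene Wapl (0.35 ± 0.04) higher and the subunit genes Stag1 (-0.36 ± 0.04), Pds5b (-0.34 ± 0.05) and Smc1a (-0.23 ± 0.05) lower. Without BPK25 replicate 1, 3 were lower. Polycomb genes gave 13 higher, 6 lower and 10 not passing of 29 (median 0.20), including Suz12 (0.55 ± 0.04) and Eed (0.48 ± 0.05), core subunits of the complex that methylates histone H3. The DNA methylation and TET list gave 2 higher, 7 lower and 7 not passing of 16, with Tet3 lower (-0.60 ± 0.07). Germline genes gave 4 higher, 10 lower and 6 not passing of 20, with Dazl lower (-0.37 ± 0.04). The 2-cell-like list gave 4 higher, 9 lower and 9 not passing of 22. Many of its members, such as the Zscan4 and Usp17l genes, are near-identical copies whose single counts are uncertain. Of 6 gastrokine and mucin-like genes 0 were higher and 2 lower, and Gkn1, Gkn2 and Mucl3 were at or below 0.859 CPM in both treatments against 13.9 to 21.4 in DMSO. The lower count was 1 without BPK25 replicate 2 or IAA replicate 3 and in the fits of 6 or 9 libraries, and 1 was higher without BPK25 replicate 1. Called genes valued in the chromatin and germline groups had adjusted p-values of at most 0.000333 by edgeR's quasi-likelihood test.

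For many genes the difference between BPK25 and IAA at day 4 departed from that of the other days. A contrast of the day 4 difference with the mean difference of days 0, 2 and 6 was more positive for 4587 genes (26.4%) and more negative for 4651 (26.7%), and these days share no libraries. By the same fit 47.9%, 57.5% and 56.6% of genes differed between BPK25 and IAA at days 0, 2 and 6, and the 54.3% of day 4 lay within that range. Several genes had another direction at day 4, going by day and treatment labels that nothing used here checks independently. Ccn1 was higher in BPK25 at day 4 and had negative values on the other days, with log2 fold changes of -1.70, -1.50, 2.31 and -1.69 at days 0, 2, 4 and 6. Lama1 was lower at day 4 and had positive values on the others (0.54, 0.42, -2.18 and 0.58), and so had Gata4 (0.76, 0.99, -1.47 and 0.27). Srf gave -0.07, -0.21, 1.30 and -0.31. Egr1 was negative at days 0 and 2 and positive at days 4 and 6, with -1.32, -0.72, 1.71 and 0.31.

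Other genes kept 1 direction. Atf4 was higher in BPK25 than in IAA on each day, with 0.61, 0.82, 1.09 and 0.64, and Nupr1 gave 1.06, 2.39, 3.31 and 3.74. Igf2 was lower on each day, with -0.71, -3.63, -3.99 and -3.39. By lists, the median of the amino acid and one-carbon genes was 0.31, 0.72, 0.77 and 0.49 on the 4 days, that of cytosolic ribosomal protein genes 0.21, 0.44, 0.36 and 0.19, and that of immediate early genes -0.40, 0.37, 1.56 and -0.39. Among immediate early genes 16 of 19 had a more positive difference at day 4 and 0 a more negative one, whereas for the amino acid list these numbers were 11 and 6 of 26. The p53 list gave 18 and 2 of 24, with medians of -0.32, 0.31, 0.46 and -0.09. Each gene given values by day had an adjusted p of at most 0.00013 for the difference between days (quasi-likelihood test of edgeR with Benjamini-Hochberg adjustment).

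**Figure D5:**
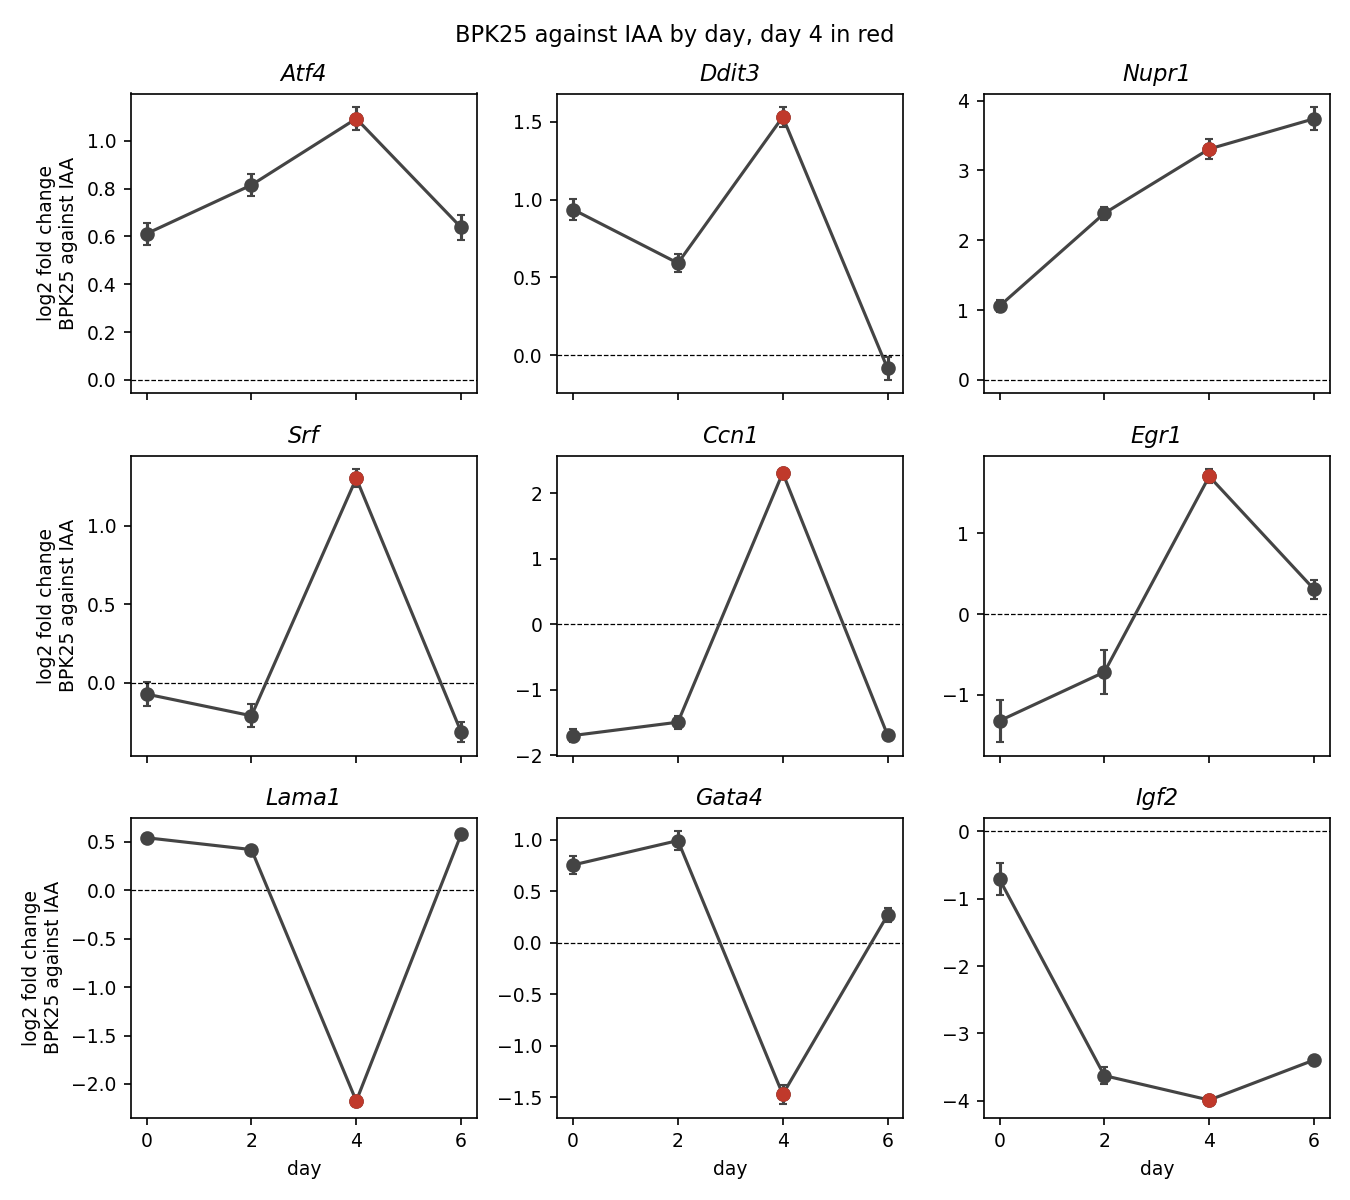
Log2 fold change of BPK25 against IAA on days 0, 2, 4 and 6 for 9 genes, with bars of ± the approximate standard error and day 4 in red; each panel has its own axis. Srf, Ccn1 and Egr1 peak at day 4 and Lama1 and Gata4 dip there, while Atf4, Nupr1 and Igf2 keep 1 direction on all 4 days.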

How the data were processed

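The deposited table holds the authors' raw counts, 1 row per gene and 1 column for each of 36 libraries, beside gene identifiers, symbols and biotypes. Per the labels' protocols, libraries were made from polyadenylated RNA with a SMARTer kit. The submitters' processing notes name FastQC 0.11.7, HISAT2 2.1.0, featureCounts 2.0.1, DESeq2 and the mm10 genome; the sources used here give no annotation release, strand setting or DESeq2 version. Groups came from the labels.

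Genes were filtered with edgeR's filterByExpr over the 12 groups (minimum count 10, minimum total 15) and scaled by TMM. All 36 libraries entered 1 fit for the two-sided quasi-likelihood test of edgeR (glmQLFit, then glmQLFTest), with Benjamini-Hochberg adjustment over the 17394 genes tested. An adjusted p below 0.05 made a call. Libraries of a group varied with a common biological coefficient of 3.86%. Software was edgeR 4.0.16, DESeq2 1.42.0 and limma 3.58.1 under R 4.3.3. The test was checked on simulated counts. The lists and the rules below were chosen with earlier results of these data known, and members of a list were called by the test over all genes.

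Named genes were the 12 highest and 12 lowest called genes whose libraries did not overlap, that reached a mean of 5 CPM in BPK25 or IAA, and that have an established symbol. From each list up to 3 called members in each direction were eligible, with the defining members, and always Ctcf and the NuRD genes. The 5 highest and 5 lowest differences between day 4 and the other days completed the rule. Not every eligible gene is described, and some are not reported here. Where a group held 1 to 3 counts, a ratio of pooled rates with an exact 95% interval is given. No molecular identifiers are mentioned, so reads may be copies of 1 molecule, and such intervals cover counting error only. Gene positions came from GENCODE M21, which matched 99.9% of the genes tested. Alternatives were RLE size factors, library totals alone, DESeq2's Wald test, no filter or a stricter filter, fits of only the 6 or 9 libraries, the replicate number as a term, and omission of each library in turn.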

Additional observations from a re-analysis of the deposited data

Results flagged for a closer look

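The difference between BPK25 and IAA differed between day 4 and the mean of days 0, 2 and 6 for 4587 genes in the positive and 4651 in the negative direction, by a test of that difference in the same fit (edgeR's quasi-likelihood test, Benjamini-Hochberg). Under the naming rule, Cyp1a1 had the largest shift towards BPK25, at 5.28 on the log2 scale, followed by the matricellular gene Ccn1 (3.94), the collagen gene Col20a1 (3.52), the lipoprotein gene Apob (3.50) and the lipid exporter gene Mfsd2b (3.48). The largest shifts towards IAA were those of Nepn (-6.74), Col3a1 (-5.23), Foxd2 (-5.08), the pepsinogen gene Pga5 (-4.97) and Syt6 (-4.68). Cyp1a1 had 3 counts in IAA and Nepn 3 in BPK25 at day 4, so their fitted shifts depend on the prior count and are no bound. Col3a1 is a feeder marker as well as a gene of differentiating cells, and feeder markers at day 4 summed to 19.7 to 20.5 CPM in BPK25 and 48.9 to 52.1 in IAA, and their part in that shift was not tested. Groups of 3 libraries are too small for a test of single outlying libraries.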

How the results depend on the processing

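Every count over all genes kept within 1.5 times its main value under all alternatives run, at most 14 for each count. Leaving out each library in turn gave 4237 to 4403 higher and 4327 to 4494 lower genes, 1016 to 1074 and 1032 to 1060 at least 2-fold, and 4226 to 4391 and 4398 to 4533 for the difference between days. DESeq2's Wald test gave 4210 higher and 4238 lower genes. Another scaling moved the median of all genes by less than 0.1, from 0.0067 to -0.0072 with library totals alone, and the share of calls that were higher lay between 46.12% without a filter and 50.26%. Of 262 named genes called, 246 kept their call and direction under all 14 alternatives, and none reversed. The replicate numbers did not pair the libraries: deviations of same-numbered libraries from their group means correlated at 0.017, 0.0064 and 0.020. With the replicate block 4726 genes were higher and 4684 lower, and 9283 of the 9450 calls were kept. Over all alternatives the calls kept ran from 8259 without BPK25 replicate 1 to 9448 with the stricter filter, and DESeq2 kept 8447. The fits of 6 or 9 libraries could not give the difference between days. Genes near the floor of 3 counts, such as Gkn1 and Gkn2, give no fold at this depth, and with 2 libraries left in a group the fit pools the spread over all groups.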

Other observations

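Zinc-binding metallothionein genes stood beside the zinc exporter gene Slc30a1 among the genes higher in BPK25; they belong to no list and were chosen after their values were seen. Mt1 stood at 130.2, 124 and 139 CPM in BPK25, 39.1, 43.6 and 37.4 in IAA and 64.0 to 78.8 in DMSO at day 4 (1.72 ± 0.08). Mt2 stood at 229, 195 and 219.9 CPM, 63.8, 62.7 and 63.3, and 116 to 127 in the same order (1.77 ± 0.06). The brain-type gene Mt3 had 11.8, 13.4 and 11.8 CPM against 4.13, 4.54 and 3.4 (1.61 ± 0.15), and DMSO lay near IAA at 3.27 to 3.82. No library overlapped between BPK25 and IAA in these genes, and each adjusted p was at most 3.04e-13 (quasi-likelihood test of edgeR with Benjamini-Hochberg adjustment). On the other days Mt1 gave 0.88, 0.40 and 0.57 and Mt3 -2.52, -2.03 and 1.42 at days 0, 2 and 6. For Slc30a1 the log2 fold change was 0.05, 0.01 and 0.15 at days 0, 2 and 6, against 2.62 at day 4.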
